A study of Homo sapiens with 8 samples.

Results

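The 2 NIPBL and the 2 SMC1A peak lists were compared by peak rank. NIPBL is the protein that loads cohesin onto DNA, and SMC1A belongs to the cohesin ring itself. Overlapping peaks of these 4 lists on chromosomes 1 to 22 and X were merged into 79254 regions, against 92867 when all 6 ChIP lists of the series were merged. Each region took, from each list, the highest within-list percentile of fold enrichment, and no value from a list without a peak there. Fold enrichment is the authors' ratio of the ChIP signal at a peak's summit to the local control, so a percentile of 80 means a peak that stood above 80% of the peaks of its own list.

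The cells were untreated GM12878, an established lymphoblastoid line, which the labels describe as derived from B lymphocytes. Chromatin was crosslinked with formaldehyde and immunoprecipitated with antibodies against NIPBL, SMC1A or MED1, a subunit of the Mediator complex, with 2 libraries per protein. The same pool of both whole cell extract libraries was the control for every list. Separate cultures for the replicates are not stated, so differences between replicates may be technical only, and all results hold for this 1 line.

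Cohesin is a ring that holds DNA in loops and holds sister chromatids together. NIPBL, with its partner MAU2, brings the ring onto DNA and stimulates the ATPase by which it extrudes loops. The ring can then move away from where it was loaded, and in mammals it accumulates where the DNA-binding protein CTCF halts it. NIPBL is known at active promoters and enhancers, where Mediator also binds. CTCF was not profiled in this series.

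The NIPBL lists held 21422 and 15357 peaks and the SMC1A lists 56510 and 68228. A percentile of 80 stood for a fold enrichment of 5.08 and 5.23 in NIPBL replicates 1 and 2, and of 18.2 and 18.7 in SMC1A. Relative depth was estimated from the lowest control value solved from the peaks of each list, as a ratio to the highest such value among the ChIP libraries. It was 0.965 and 0.820 for NIPBL and 0.752 and 0.743 for SMC1A. Scaling and fragment lengths used by the caller are not given, so this ratio may differ from true depth. The lowest fragment pileup at a called summit was 10 and 10 for NIPBL and 8 and 7 for SMC1A, so weaker binding was not detectable in these lists. Intervals in parentheses are exact (Clopper-Pearson, 95%). They cover counting error alone and treat neighbouring regions as independent.

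Cohesin lay mostly where no loader peak was called. The regions were sorted by the lists that held a peak. SMC1A in both lists without any NIPBL peak made up 39806 regions, or 50.2%. NIPBL in both lists without any SMC1A peak made up 2077, or 2.62%. All 4 lists held a peak at 7193 regions, or 9.08%, and these were wide, with a median of 719 bp against 368 bp over all merged regions. The remaining regions had a peak in 1 list of at least 1 factor: 15945 had a single SMC1A list and no NIPBL, and 5703 a single NIPBL list and no SMC1A.

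Regions shared by all 4 lists were strong ones for the loader and weak ones for cohesin. Their median percentile was 71.4 and 63.3 in the NIPBL lists and 23.4 and 38.5 in the SMC1A lists. Where SMC1A was present without NIPBL, its median percentiles were 59.5 and 66.4 and its median fold enrichments 11.1 and 12.6, against 4.66 and 5.64 at the shared regions. NIPBL without SMC1A was weaker than NIPBL at the shared regions, with median percentiles of 56.2 and 46.8. Both NIPBL lists therefore pointed the same way, and so did both SMC1A lists.

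The rank of the loader at a region said little about the rank of cohesin. Spearman's rho between NIPBL and SMC1A lists was 0.104 for replicate 1 of both (n = 10631 regions) and 0.186 for NIPBL replicate 1 with SMC1A replicate 2 (n = 13382). It was 0.143 for NIPBL replicate 2 with SMC1A replicate 1 (n = 8651) and 0.225 for replicate 2 of both (n = 10735). Between the NIPBL replicates rho was 0.640 (n = 11539) and between the SMC1A replicates 0.956 (n = 50827). Every across-factor value was thus below both values between replicates. The points of these correlations share the control pool and the width of the merged region, and they describe regions, which are not independent replicates.

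**Figure D1:**
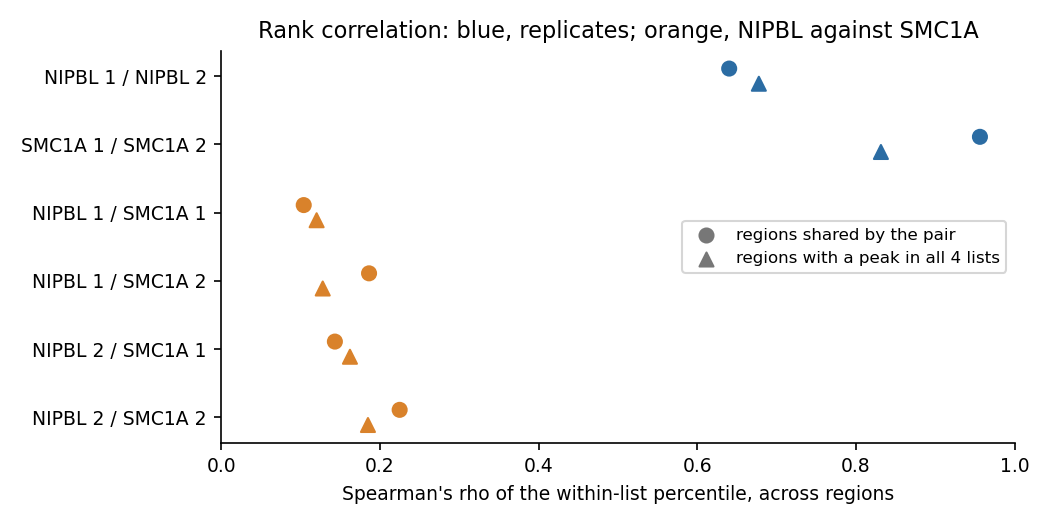
Spearman's rho of the within-list percentile of fold enrichment for each pair of the 4 lists, from 0 to 1 on the x axis. Circles use the regions shared by the pair and triangles the 7193 regions with a peak in all 4 lists; the 4 NIPBL and SMC1A pairs (orange) lie between 0.104 and 0.225, below the replicate pairs (blue) at 0.640 and above.

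The mean rho between replicates exceeded the mean across factors by 0.634. In a two-sided exact permutation test over the 3 ways to sort 4 libraries into pairs this gave p = 0.333, the smallest p the design allows, so the size of the gap is a description. Over the 7193 regions of all 4 lists the across-factor values were 0.120 to 0.185, against 0.678 for NIPBL replicates and 0.831 for SMC1A replicates. Over the regions shared by each pair of lists, the across-factor values of 0.104 to 0.225 fell to between 0.0293 and 0.154 when the width of the region was taken into account. With regions of either list included and a missing peak set to percentile 0, the across-factor values were between -0.517 and -0.321. Most merged regions held 1 factor only, so that setting pushes these values below 0 by construction.

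The weak relation was spread over the genome. With the replicates of each factor averaged, rho over the 7193 regions was 0.181, and it was above 0 on 23 of 23 chromosomes. The lowest was 0.0740 on chromosome 18 (145 regions) and the highest 0.338 on chromosome 16 (301 regions), with a median of 0.173.

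The relation did not run in 1 direction along the strength of cohesin. Among the regions of all 4 lists, the median NIPBL percentile was 53.8 where the mean SMC1A percentile was under 20 (n = 2119), 69.2 from 20 to 40 (n = 2585) and 81.0 from 40 to 60 (n = 929). It was 55.4 from 60 to 80 (n = 486) and 64.4 from 80 upwards (n = 1074). NIPBL was therefore strongest at regions of middle cohesin rank. This order, with the top at 40 to 60 and a lower value at 60 to 80, held in all 4 pairs of single lists. For NIPBL replicate 2 along SMC1A replicate 2, for example, the medians were 48.1, 62.8, 77.3, 63.7 and 64.4. The quartiles were wide, from 57.9 to 94.4 in the class from 40 to 60, and overlapped between all 5 classes. Below and above a mean SMC1A percentile of 60, a split chosen after the values were seen, rho between lists of different factors was 0.253 to 0.317 (n = 5633) and 0.153 to 0.166 (n = 1560).

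**Figure D2:**
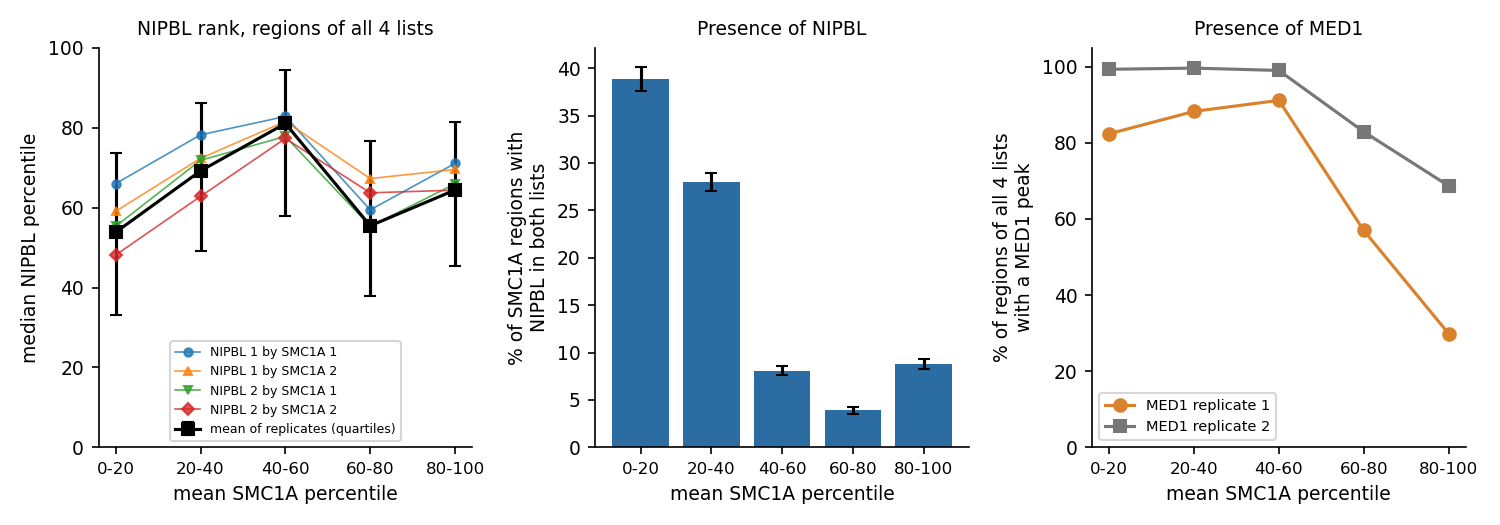
Left, median NIPBL percentile against mean SMC1A percentile at the 7193 regions of all 4 lists, in black with bars to the quartiles and in colour for each pair of single lists. Middle, share of the regions with SMC1A in both lists that had NIPBL in both, with exact 95% intervals; right, share of the 7193 regions with a peak of each MED1 library, which falls from 82.4% to 29.9% in replicate 1.

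MED1, the Mediator subunit, changed along the same axis. A peak of MED1 replicate 1 overlapped 82.4%, 88.3% and 91.2% of the regions in the 3 lower SMC1A classes, and 57.0% and 29.9% in the 2 upper ones. For MED1 replicate 2 these shares were 99.3%, 99.7%, 99.0%, 82.9% and 68.7%. At the 5471 regions with a peak in both MED1 lists the median NIPBL percentile along the 5 SMC1A classes was 55.5, 70.9, 84.5, 63.4 and 66.6. At the other 1722 regions it was 47.1, 56.2, 52.7, 50.0 and 63.7, with 82 regions in the class from 40 to 60. The rise to the middle class was therefore seen where MED1 was present in both lists, and the other regions had their highest median at the strongest cohesin. Whether MED1 sets this difference was not tested, and region width also moved along the axis, with medians of 606, 703, 835, 841.5 and 876 bp.

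NIPBL ranked closer to MED1 than to cohesin at regions that held all 3 proteins. Over the same 5471 regions rho between NIPBL and MED1 lists was 0.326 to 0.423, and between NIPBL and SMC1A lists 0.188 to 0.262. The 4 values for MED1 lay above the 4 for SMC1A. Replicates of 1 factor gave 0.706 for NIPBL, 0.759 for SMC1A and 0.820 for MED1 over these regions.

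Presence followed the same uneven course. Among the 50827 regions with SMC1A in both lists, NIPBL was in both of its lists at 38.8% (37.5 to 40.1) of those under percentile 20, at 28.0% (27.1 to 28.9) from 20 to 40 and at 8.09% (7.60 to 8.61) from 40 to 60. It was in both at 3.90% (3.57 to 4.26) from 60 to 80 and at 8.80% (8.30 to 9.32) from 80 upwards. The class from 60 to 80 thus had the fewest loader regions, and the strongest cohesin regions had more. From the loader's side, SMC1A was in both lists at 52.0% (48.8 to 55.3) of the regions with NIPBL in both lists and under percentile 20, and at 75.8% (74.2 to 77.4) of those from 80 upwards. Wider regions have more room for overlap, and the median width of these loader regions went from 537 to 706 bp. Along the SMC1A classes, from under percentile 20 upwards, median widths were 472, 363, 342, 416 and 546 bp. The class from 80 upwards was thus also the widest, while the narrowest was that from 40 to 60. Whether these shares would differ at equal width was not tested.

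Among the 7193 regions with a peak in all 4 lists, strongly discordant regions were few. A region was called NIPBL-high or SMC1A-high at percentile 80 or more in both lists of the factor, and low at 20 or less in both. The counts below leave out regions without any peak of the other factor, of which 8749 were SMC1A-high and 219 NIPBL-high. Of the 1688 NIPBL-high regions, 141 were SMC1A-low, or 8.35% (7.08 to 9.78), where 17.5% of all 7193 regions were SMC1A-low. Another 199 were SMC1A-high, or 11.8% (10.3 to 13.4), where 13.9% of all were. The strongest loader regions were therefore at both ends of cohesin rank less often than regions of all 4 lists in general. Of the 1002 SMC1A-high regions, 33 were NIPBL-low, or 3.29% (2.28 to 4.59), close to the 3.86% of all regions that were NIPBL-low. A further 97 regions were low in all 4 lists.

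These counts depended on the scale and on single libraries. With percentiles taken among the 7193 regions instead of whole lists, 30 regions were NIPBL-high and SMC1A-low and 139 were SMC1A-high and NIPBL-low, so which kind was more frequent turned. The 141 became 323 without NIPBL replicate 2 and 283 and 563 when SMC1A replicate 1 or 2 was left out, and the 33 became 161 and 219 without NIPBL replicate 1 and 2, since each such count drops 1 condition.

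MED1 differed between the kinds of discordant region. Of the 141 NIPBL-high and SMC1A-low regions 94.3% (89.1 to 97.5) overlapped a peak of MED1 replicate 1 and 100% (97.4 to 100) a peak of replicate 2, against 76.1% and 93.7% of all 7193. Of the 33 SMC1A-high and NIPBL-low regions 21.2% (8.98 to 38.9) and 72.7% (54.5 to 86.7) did. The 199 regions high in all 4 lists lay between, at 40.2% (33.3 to 47.4) and 77.4% (70.9 to 83.0). Over all 1002 SMC1A-high regions the shares with MED1 were 28.6% and 68.1%, both inside the intervals of the 33. The low MED1 share of the 33 was therefore not particular to discordant regions. Over all 1688 NIPBL-high regions the shares were 88.0% and 96.5%, and over all 1260 SMC1A-low regions 81.5% and 99.4%. MED1 lists were not used to choose any of these regions.

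Over all 7193 regions MED1 rose step by step with the lean towards the loader. Regions were sorted into 5 classes of equal size by the mean NIPBL percentile minus the mean SMC1A percentile. From the class leaning most to SMC1A to that leaning most to NIPBL, MED1 replicate 1 overlapped 41.6%, 74.1%, 83.8%, 89.2% and 91.7%, and replicate 2 overlapped 75.7%, 94.8%, 99.0%, 99.4% and 99.8%. The difference between the end classes was 50.0 points in MED1 replicate 1 and 24.1 in replicate 2, a mean of 37.1 ± 18.3 points (SD, n = 2). Among equal numbers of top peaks in each list it was 19.3 points. No test was run over the 2 MED1 libraries, and the widest of the 5 classes was the one leaning to SMC1A, at a median of 804 bp against 682 bp at the other end.

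Single regions show the range. Positions are 1-based on hg19, and regions are named by position because genes of that build were not used here. The most NIPBL-leaning of the discordant regions lay on chromosome 2 from 23603266 to 23603901. Its NIPBL fold enrichments were 8.58 and 10.2 in replicates 1 and 2, and its SMC1A fold enrichments 3.16 and 2.14. Solved fragment pileups there were 80 and 72 for NIPBL and 23 and 19 for SMC1A, so the order was the same in fragments as in rank. Antibody and depth differ between these libraries, so the pileups do not compare amounts of the proteins. MED1 stood at 6.46 and 12.9 in the same region. Chromosome 15 held the next, from 40842290 to 40843254, with NIPBL at 6.97 and 7.72 and SMC1A at 2.86 and 2.59. In the third (chromosome 6, 108885368 to 108885833) NIPBL stood at 9.95 and 8.61 and SMC1A at 2.93 and 3.26. All 6 regions named in this class had a peak in both MED1 lists. The other 3, on chromosomes 9, 1 and 3, had NIPBL between 7.95 and 11.98 and SMC1A between 2.92 and 3.602.

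The opposite extreme lay on chromosome 15 from 78400460 to 78401346. SMC1A fold enrichments there were 34.2 and 36.1, with pileups of 242 and 253 fragments, and NIPBL fold enrichments were 2.69 and 2.61, with pileups of 26 and 19. No MED1 peak overlapped it. The next region (chromosome 18, 12893706 to 12894195) had SMC1A at 38.4 and 43.9 and NIPBL at 2.75 and 2.94, again without MED1. The third lay on chromosome 16 from 20861125 to 20861866, with SMC1A at 29.1 and 30.0 and NIPBL at 2.45 and 2.88. Of the 6 regions named here, on chromosomes 15, 18, 16, 7, 3 and 11, 4 had no peak in either MED1 list. The difference in rank between the factors was thus far larger than the difference between replicates in both kinds of region, as the choice of regions required.

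**Figure D3:**
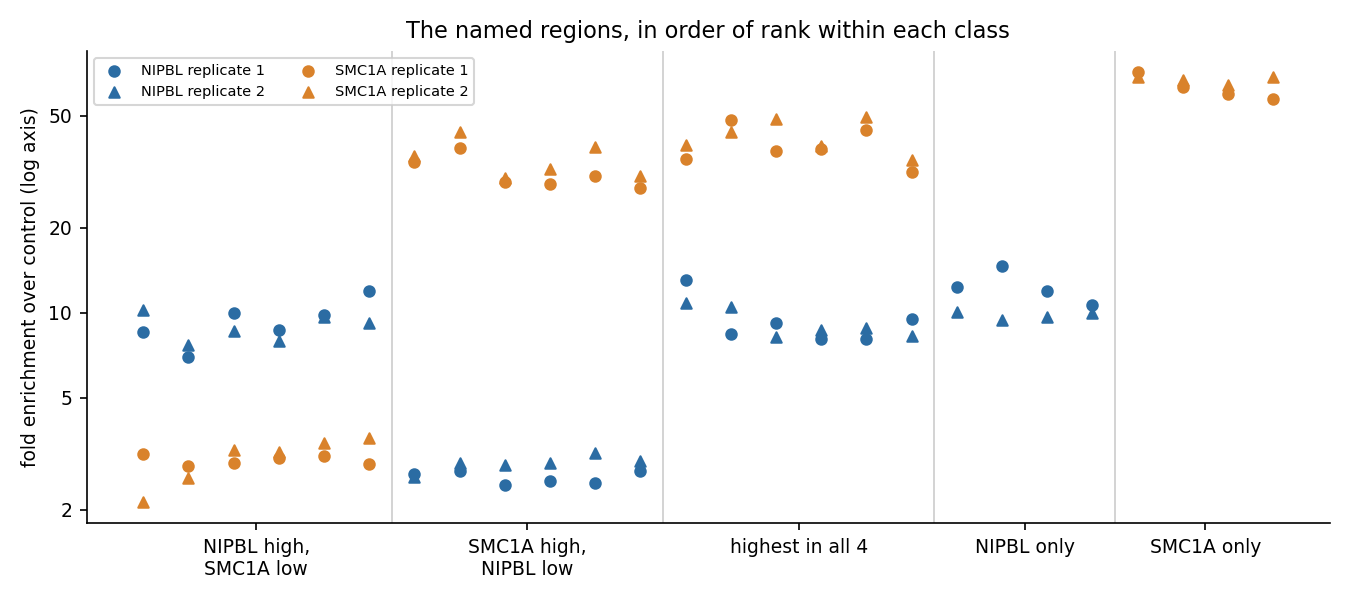
Fold enrichment over control, on a log axis, of the 26 named regions in each of the 4 lists, grouped by class and ordered by rank within it; a list with no peak has no symbol. Replicates (circles and triangles) lie close together, and in the regions highest in all 4 lists SMC1A (orange) stands between 31.5 and 49.4 and NIPBL (blue) between 8.07 and 13.1.

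Both proteins were near the top of their lists at a few regions. The first, on chromosome 14 from 23024208 to 23027879, was 3672 bp wide, with NIPBL at 13.1 and 10.8, SMC1A at 35.3 and 39.5 and MED1 at 21.6 and 34.2. Its NIPBL summits lay -894 and -885 bp from the SMC1A summits of the same replicate number, much farther than in the other regions named. In the second (chromosome 8, 29579768 to 29580977) NIPBL stood at 8.42 and 10.5 and SMC1A at 48.5 and 43.7. In the third (chromosome 10, 125317543 to 125319253) NIPBL stood at 9.24 and 8.23 and SMC1A at 37.4 and 48.7. Apart from the first, the NIPBL summits of these 6 regions were offset from the SMC1A summits by between -170 and -58 bp, while their SMC1A replicate summits were 3 to 21 bp apart. The sixth, on chromosome 5 from 78195391 to 78196159, had no MED1 peak in either list.

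Regions of a single factor reached the top of their lists too. Ranked by the mean percentile over both lists of the factor, the first NIPBL region without SMC1A (chromosome 9, 99003578 to 99004095) had fold enrichments of 12.3 and 10.1, and the one ranked after it (chromosome 11, 37525300 to 37526039) had 14.7 and 9.41. MED1 replicates 1 and 2 overlapped 48.3% and 90.4% of the 2077 such regions, and 56.6% and 91.8% of the 219 among them that were NIPBL-high. The first SMC1A region without NIPBL (chromosome 15, 22436013 to 22436602) had 71.4 and 68.7, and the one ranked after it (chromosome 16, 19918724 to 19919405) had 63.5 and 67.2. The shares with MED1 were 3.69% and 14.2% of the 39806 such regions, and 1.21% and 11.3% of the 8749 among them that were SMC1A-high.

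The loader and cohesin also differed in position within shared regions. Over the 7193 regions the median distance between the summits of the strongest peaks was 45 bp between NIPBL replicates and 38 bp between SMC1A replicates. Between factors it was 82, 78, 74 and 70 bp. Each across-factor median exceeded both replicate medians, by 34.5 bp on average (exact permutation test, two-sided, p = 0.333, the smallest the 3 pairings allow). With the middle of the peak in place of its summit, a setting chosen after the data were seen, the gap was 17.0 bp, and with equal numbers of top peaks it was 70.0 bp.

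The offset was clearest at strong cohesin. At the 1002 SMC1A-high regions the SMC1A replicates placed their summits a median of 10 bp apart, and 91.1% lay within 25 bp of each other. NIPBL summits lay 102.5 and 102 bp away from the SMC1A summits in replicate 1, and 87 and 87 bp away in replicate 2. Between 11.3% and 20.6% of them were within 50 bp of the SMC1A summit, and between 66.4% and 68.2% lay more than 50 and up to 150 bp away. In bins of 20 bp the fullest was 80 to 100 or 100 to 120 bp for NIPBL replicate 1 and 60 to 80 bp for replicate 2, and only 2.99% to 5.89% of the regions were in the bin from 0 to 20 bp. NIPBL replicates were 44 bp apart at these regions.

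**Figure D4:**
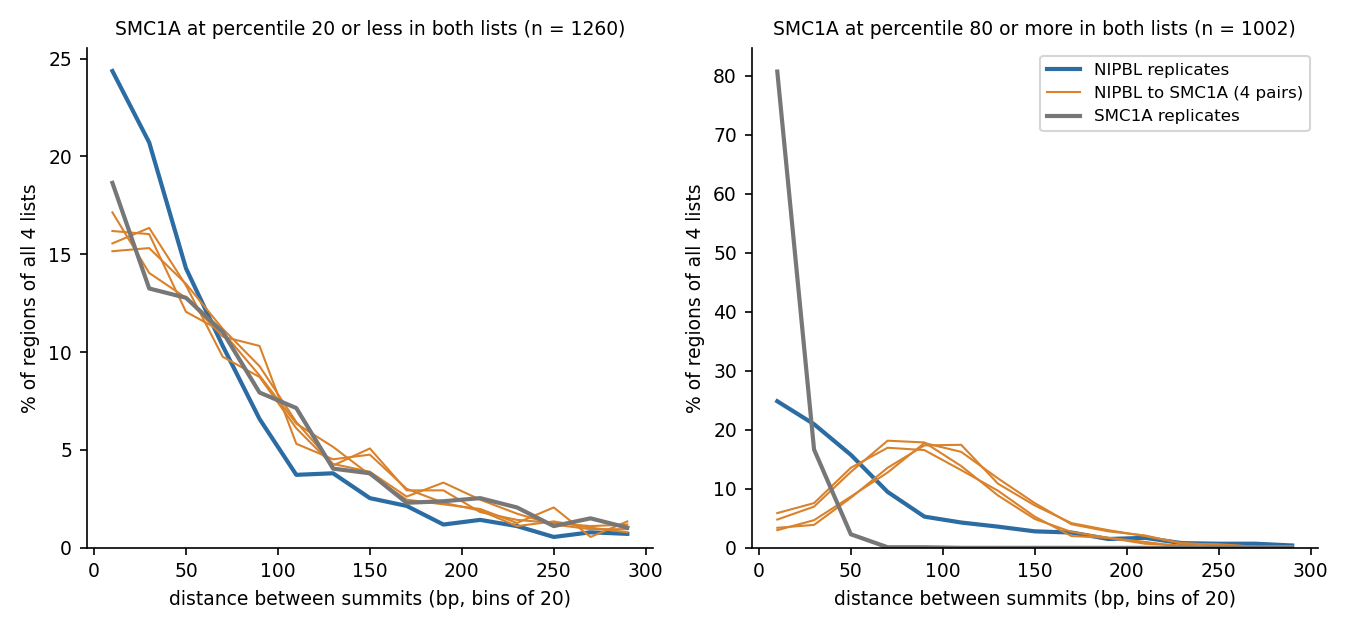
Distance between the summits of the strongest peaks of each pair of lists, in bins of 20 bp, as a share of the SMC1A-low regions (left, n = 1260) and the SMC1A-high regions (right, n = 1002), with y axes of different range. At SMC1A-low regions every pair is most often within the first bins, while at SMC1A-high regions the 4 NIPBL to SMC1A lines (orange) peak between 60 and 120 bp and the SMC1A replicates (grey) have 80.7% of regions within 20 bp.

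At weak cohesin no such displacement was seen. At the 1260 SMC1A-low regions NIPBL summits lay 69, 70, 70 and 70 bp from SMC1A summits, but the SMC1A replicates were themselves 68 bp apart, and NIPBL replicates 47 bp. Within 50 bp lay 37.9% to 40.2%. The across-factor medians there did not exceed the SMC1A replicate spread by more than 2 bp. Averaged over the 4 pairs of lists, the distance at strong cohesin was larger by 24.9 bp (SD over pairs 9.11). The pairs share libraries, so this SD is not a spread of independent values. The difference was 33.5 and 32.0 bp for NIPBL replicate 1 and 17.0 and 17.0 bp for replicate 2. Without NIPBL replicate 1 it was 15.5 bp, with peak middles 15.75 bp, and with equal numbers of top peaks it was -7.75 bp. That last setting compares 300 regions with 57 that all rank high in the full SMC1A lists. This comparison of strong with weak cohesin was chosen after the data were seen.

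The NIPBL replicates mostly lay on the same side of a strong cohesin summit. Measured from the mean SMC1A summit, they shared a side in 839 of 1002 SMC1A-high regions, or 83.7% (81.3 to 86.0), against 71.6% (69.0 to 74.1) at SMC1A-low regions. Both NIPBL summits were measured from this common point and lay a median of 44 and 47 bp apart in these classes. A shared side in most regions is therefore partly built in and does not by itself show a displacement. The side itself was even with respect to the chromosome: 48.8% (45.7 to 51.9) of NIPBL replicate 1 summits and 49.3% (46.2 to 52.4) of replicate 2 summits lay at the lower coordinate. Strand and the orientation of any motif were not analysed here. Most NIPBL peaks still covered the cohesin summit, in 78.5% to 79.4% of SMC1A-high regions over the 4 pairs, and NIPBL peaks there were narrow, with median widths of 388.5 and 331 bp against 732 and 783 bp for SMC1A.

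The offset was not limited to weak NIPBL peaks. At the SMC1A-high regions with NIPBL under percentile 50 in both lists (n = 173) the 4 medians were 97, 92, 84 and 83 bp, and the NIPBL replicates were 47 bp apart. At the 199 regions that were also NIPBL-high they were 111, 110, 93 and 97 bp, with NIPBL replicates 30 bp apart. A higher NIPBL rank thus went with replicates that lay closer together and with an offset that was no smaller.

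MED1 summits gave a further reference point. At SMC1A-low regions MED1 replicate 1 summits (n = 1027) lay 48 and 49 bp from the NIPBL summits and 65 and 62 bp from the SMC1A summits, and MED1 replicate 2 (n = 1252) lay 51 and 47 against 67 and 63 bp. The median distance was there smaller to the loader in both libraries. However, replicate summits at the 1260 SMC1A-low regions were themselves 68 bp apart for SMC1A and 47 bp for NIPBL. These distances therefore do not show which protein Mediator was closer to. At SMC1A-high regions the libraries differed. MED1 replicate 2 (n = 682) lay 91 and 78 bp from NIPBL and 47 and 46 bp from SMC1A, whereas replicate 1 (n = 287) lay 88 and 65 bp from NIPBL and 81 and 75 bp from SMC1A.

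Over whole lists, loader summits were more often beside weak cohesin than beside strong cohesin. In equal shares of each SMC1A list, 20.2%, 19.3%, 23.3% and 20.6% of NIPBL summits lay within 200 bp of a summit in the weakest 20%, for NIPBL replicate 1 to SMC1A replicates 1 and 2 and then for NIPBL replicate 2. For the strongest 20% the shares were 7.61%, 8.60%, 7.996% and 9.12%. The mean difference was -12.5 points (SD over the 4 pairs 2.02), with the same sign in each pair, though the pairs share libraries and are not independent. The lowest share, 3.20% to 3.76%, belonged to the class next to the strongest in all 4 pairs. Ranked by −log10 p the difference was -5.47 points, between the strongest and weakest 10% it was -5.32, and within 1000 bp it was -22.9. Among equal numbers of top peaks it turned to 2.31 points, where the SMC1A lists keep strong peaks only.

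**Figure D5:**
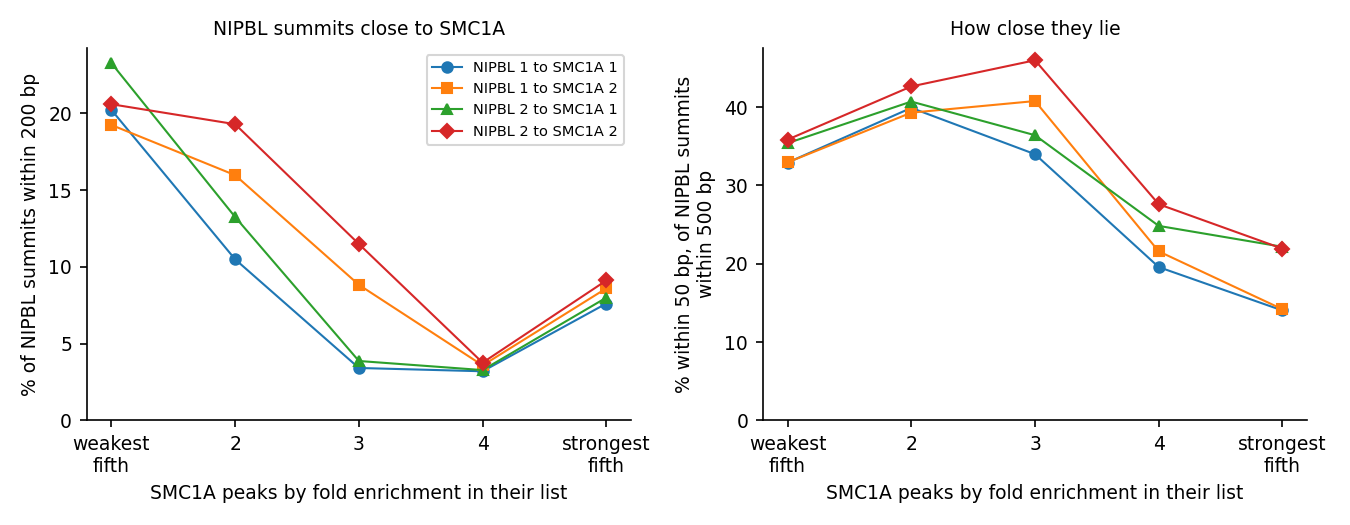
Left, percent of all NIPBL summits within 200 bp of an SMC1A summit of each strength class (5 equal classes by fold enrichment within the SMC1A list), 1 line for each pair of lists. Right, of the NIPBL summits within 500 bp, the percent within 50 bp; the 4 lines end at 14.0% to 22.2% for the strongest SMC1A summits.

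Where a loader summit did lie near strong cohesin, it rarely lay on it. Of the NIPBL summits within 500 bp of a summit in the strongest 20% of an SMC1A list (1286 to 1960 summits), 14.0% and 14.2% of NIPBL replicate 1 and 22.2% and 21.9% of replicate 2 were within 50 bp. For the weakest 20% these shares were 32.9%, 32.9%, 35.4% and 35.8%.

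Most loader summits were far from strong cohesin and close to some cohesin. The median distance from a NIPBL summit to the nearest summit in the strongest 20% was 49.8 and 40.8 kb for NIPBL replicate 1, to SMC1A replicates 1 and 2, and 46.5 and 37.8 kb for NIPBL replicate 2. To the nearest SMC1A summit of any strength it was 350, 145, 180 and 107 bp. A strong SMC1A summit lay within 10 kb of 18.1%, 21.3%, 18.7% and 22.2% of NIPBL summits, a mean of 20.1% (SD over pairs with shared libraries 2.00). The longer SMC1A list gave the shorter distance in each case.

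Stronger loader peaks lay closer to cohesin of any strength. From the weakest to the strongest 20% of each NIPBL list, the median distance to any SMC1A summit went from 768 to 111 bp and from 253 to 85 bp for replicate 1, and from 443 to 91 bp and from 152 to 69 bp for replicate 2. The median distance to strong cohesin went from 54.1 to 47.3 kb and from 43.8 to 39.8 kb for replicate 1, and from 49.6 to 44.7 kb and from 39.9 to 36.1 kb for replicate 2. The share of NIPBL summits within 200 bp of strong cohesin went from between 5.16% and 6.91% in the weakest class to between 9.64% and 10.7% in the strongest, over the 4 pairs.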

How the data were processed

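ChIP-seq peak lists of NIPBL and SMC1A were compared, with MED1, which shares their control and was not used to choose regions, as a reference. Per the submitters' processing notes, the tools were Trimmomatic 0.33, BWA 0.7.12 and MACS2 2.1.0 on hg19, and no settings are given in the sources used here. Each ChIP library had its own peak calling by the authors, with the 2 whole cell extracts pooled as the control, per the labels, so all lists share 1 control. Column 7 of the deposited lists is fold enrichment, a linear ratio per peak. The next deposited columns are −log10 of the p-value and of the q-value at the summit, and the smallest −log10 q-value was 1.30. The deposited summit offset in bp gave summit positions. Read totals were not used here, and pileups were solved from fold enrichment and p, assuming unscaled ChIP libraries.

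Peaks of the 4 lists overlapping by at least 1 bp were merged, and each list was ranked by fold enrichment with percentiles over its own peaks on chromosomes 1 to 22 and X. Spearman's rho, summit distances and shares were computed in Python 3.11.15 with scipy 1.17.1, pandas 2.3.3 and numpy 2.4.6. An exact permutation test over the 3 pairings of 4 libraries set within-factor against across-factor values. The steps were tested on simulated peaks. Named regions were the 6 most discordant in each direction, the 6 with the highest lowest percentile, and the 4 with the highest mean percentile that held a single factor. Alternatives covered ranking by −log10 p, thresholds, windows, overlap, q-value, equal numbers of peaks (15357 in each list), each library left out and same-numbered files. The members, rules and lists were chosen with earlier results of these data known.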

Additional observations from a re-analysis of the deposited data

How the results depend on the processing

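All 13 alternatives kept the direction of the rank correlation gap (1 of them, missing peaks at percentile 0, by construction), and all 10 that of the summit offset gap. Leaving out 1 library gave 0.434 to 0.810 and 26.5 to 49.8 bp, where only 1 replicate pair remains. The replicate numbers were not shown to pair the samples, since the differences between replicates of the factors had a rho of 0.0255. With same-numbered files only, as a replicate block, the gaps were 0.634 and 34.5 bp, and the offset at strong minus weak cohesin was 25.25 bp.

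The 141 NIPBL-high and SMC1A-low regions became 62 with ranks by −log10 p, 306 at percentiles 75 and 25, 13 at 90 and 10, 30 with percentiles among regions of all 4 lists and 5 with equal numbers of top peaks. Leaving out 1 library gave 188 to 563. The 33 SMC1A-high and NIPBL-low regions became 56, 5, 139 and 4 under the last 4 of these settings, and 35 to 219 with 1 library left out. The share of NIPBL summits near strong minus near weak cohesin was -5.47 points by −log10 p, -5.32 with the strongest and weakest 10%, -10.03 within 100 bp, -22.9 within 1000 bp and 2.31 with equal numbers of top peaks, and -13.95 to -11.07 with 1 library left out. The share with strong cohesin within 10 kb was 11.5% for the strongest 10%, 54.1% within 50 kb and 6.34% with equal numbers of top peaks, and 18.4% to 21.7% with 1 library left out. The MED1 difference between the leaning classes kept its direction in all 11 alternatives, from 19.3 points with equal numbers of top peaks to 50.0 without MED1 replicate 2. The offset difference between strong and weak cohesin, with alternatives chosen after the data were seen, was 15.75 bp with peak middles, -7.75 bp with equal numbers of top peaks and 15.5 to 26.5 bp with 1 library left out. Causes were not tested, except that equal numbers of top peaks leave 1009 regions of all 4 lists, with strong SMC1A peaks only, by construction. Peak lists hold no signal below the caller's threshold, so the lowest pileups of 7 to 10 fragments limit what could be seen.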
